A study of Mus musculus with 6 samples.

Results

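The genes described here encode the latent TGF-beta binding proteins and the structural proteins of microfibrils and elastic fibres: Ltbp1, Ltbp2, Ltbp3, Ltbp4, Fbn1, Fbn2, Mfap2, Mfap4, Mfap5 and Eln. They are a set listed by name, drawn up with earlier results of these data known, and make up 10 of the 29385 genes with values in 6 mouse heart libraries. All 10 passed the filter on low counts and were tested. Fibrillins, the products of Fbn1 and Fbn2, assemble into thin extracellular filaments, the microfibrils, on which tropoelastin, the product of Eln, is deposited and cross-linked. The latent TGF-beta binding proteins are relatives of the fibrillins. Ltbp1, Ltbp3 and Ltbp4 bind the latent form of TGF-beta covalently and anchor it in the matrix, while Ltbp2 binds microfibrils without carrying latent TGF-beta. In the heart these proteins lie in the matrix made mainly by fibroblasts and, around vessels, by smooth muscle cells.

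Poly(A) RNA of hearts was sequenced 12 months after an administration to newborn mice. Myh6 encodes the alpha myosin heavy chain of heart muscle cells. The 6 libraries formed 3 groups of 2: Myh6 RH/+ given vehicle, Myh6 RH/RQ given vehicle, and Myh6 RH/RQ given AAV-hpCas13d. AAV is an adeno-associated virus used as a carrier and Cas13d is a guide-directed enzyme that cleaves RNA. All 3 groups carried the RH allele, and a group with unaltered Myh6 alleles was not analysed here. The labels name the alleles RH and RQ without spelling them out, and give neither the sex nor the promoter that drives the enzyme. In what follows, "treated" means Myh6 RH/RQ with AAV-hpCas13d. Whether 2 samples of a group are separate mice is not stated in the labels, and the tests therefore cover the spread between samples, which may be technical. The values are CPM, a gene's reads scaled to the total of its library, and the libraries held between 36269261 and 51017058 reads. Fewer cells of a type and less RNA per cell cannot be told apart in RNA of a whole tissue.

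Transcripts of the sex chromosomes split the libraries along a group border. Xist, the RNA behind X inactivation in females, had 280 and 265 CPM in RH/+ hearts, 0.274 and 0.0516 CPM in vehicle-given RH/RQ hearts and 299 and 326 CPM in treated hearts. Ddx3y, a Y-linked gene, was at 85.2 CPM in each library of RH/RQ vehicle and had 0 reads in the other 4. The sex pattern therefore cannot be told apart from genotype when RH/RQ vehicle is set against RH/+, or from treatment when treated RH/RQ is set against vehicle. Treated and RH/+ hearts had the same pattern: of 5 sex-linked genes, limma, edgeR and DESeq2 each called 0 between them, and 0 passed at an unadjusted limma p under 0.05. The 3 comparisons share groups, so their results are not independent of each other.

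Between them the members ranged from a rare to an abundant transcript. Levels were compared per length, as CPM divided by the length in kilobases of the union of a gene's annotated exons. Ltbp4 led in every group, at 55.4 ± 7.35 CPM per kb in RH/+, 57.9 ± 1.44 in RH/RQ vehicle and 73.6 ± 9.40 in treated hearts (SD, n = 2 each). Mfap5, a microfibril-associated glycoprotein, followed at 6.42 ± 0.510, 12.3 ± 1.73 and 12.5 ± 0.269 CPM per kb in the same order, and Mfap4, a glycoprotein that binds elastin and microfibrils, at 5.29 ± 0.561, 11.2 ± 2.04 and 11.8 ± 0.314 CPM per kb (SD, n = 2 each). The ranges of Mfap5 and Mfap4 overlapped in the RH/RQ vehicle group and did not in the other groups. Below them came Ltbp1, Ltbp3 and Fbn1, all between 3.12 and 6.25 CPM per kb, then Eln between 2.73 and 4.45. This order changed with the length used: with the longest transcript in place of the exon union, Eln stood above Fbn1 in all 3 groups, and Mfap4 in RH/+ hearts (5.74 CPM per kb) fell below Ltbp1 (7.27), Ltbp3 (6.60) and Eln (5.84). Mfap2, the other microfibril-associated glycoprotein, was between 0.976 and 2.75 CPM per kb, and Ltbp2 between 0.276 and 2.31. Fbn2, the fibrillin best known from the embryo, was lowest in every group, at 0.0436 to 0.101 CPM per kb.

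**Figure D1:**
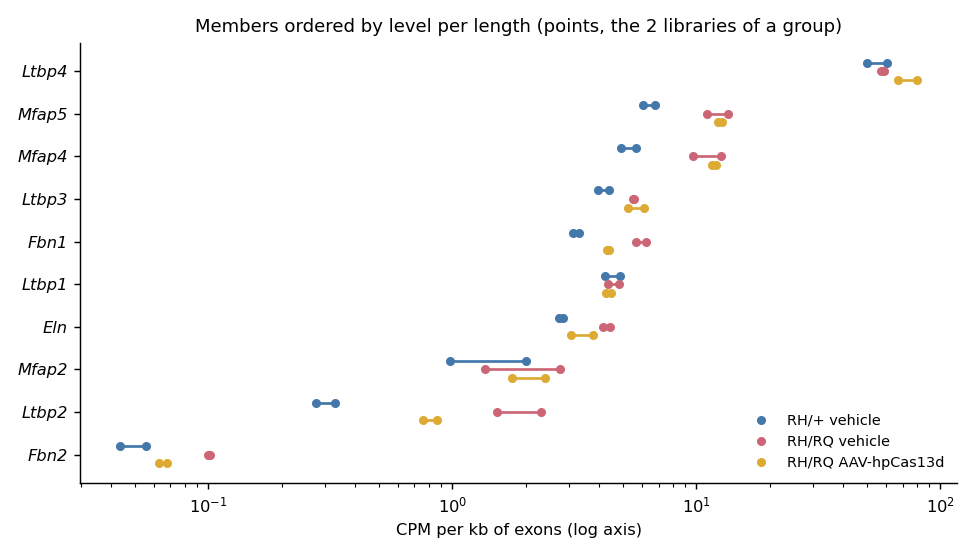
Level of each member per length, in CPM per kilobase of the union of its exons on a log axis. Points are libraries, and a line joins the 2 libraries of a group. Ltbp4 lies above 50 CPM per kb in all 6 libraries and Fbn2 at or below 0.101.

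Each family was dominated by a single gene. Per length, Ltbp4 made up 82.7% to 87.8% of the summed level of the 4 Ltbp genes over the 6 libraries. Fbn1 made up 98.2% to 98.7% of the 2 fibrillin genes, and Mfap5 77.2% to 89.1% of Mfap2 and Mfap5 together. The Ltbp2 share of its family was as follows: 0.470% and 0.471% in RH/+, 2.21% and 3.25% in RH/RQ vehicle, and 0.833% and 1.12% in treated hearts. These shares did not overlap between any pair of groups.

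Counts of the members were read against all 16804 genes tested by limma on log2(CPM + 1), where a call needs a Benjamini-Hochberg adjusted p under 0.05. In RH/RQ vehicle against RH/+ hearts, 6 of the 10 members were higher (Ltbp2, Mfap4, Mfap5, Fbn1, Eln and Ltbp3), while limma called 3.48% of all genes higher. No member was lower by limma (0 also at an unadjusted p under 0.05, and 0 by edgeR and by DESeq2), beside 1.51% of all genes lower. The median member differed by 0.55 on the log2 scale and the median gene by 0.04. edgeR and DESeq2 each called the same number of members, 6, beside 5.46% and 6.42% of all genes in either direction. TMM factors, which rescale libraries by their typical gene, moved the split of all called genes from 585 higher and 253 lower to 527 higher and 404 lower. Without RH/+ replicate 1, 273 genes were called higher and 120 lower, and 5 members were higher.

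Treated against vehicle RH/RQ hearts gave 2 members lower, Ltbp2 and Fbn1, where limma called 0.827% of all genes lower. No member was called higher by limma, edgeR or DESeq2, and 1 (Ltbp4) was higher at an unadjusted limma p under 0.05; 1.22% of all genes were called higher. The median member differed by -0.02 and the median gene by 0.04 on the log2 scale. Count tests called 2 members each, beside 2.27% of all genes in either direction for edgeR and 2.49% for DESeq2. With TMM factors the split of all called genes went from 205 higher and 139 lower to 172 higher and 196 lower. Leaving out treated replicate 2 raised the number of genes called higher to 509, and leaving out RH/RQ vehicle replicate 2 lowered it to 74.

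Treated against RH/+ hearts gave 6 members higher (Ltbp2, Mfap4, Mfap5, Ltbp3, Ltbp4 and Fbn1), beside 2.33% of all genes. None was lower by limma (0 at an unadjusted p under 0.05, 0 by edgeR and 0 by DESeq2), beside 0.530% of all genes. edgeR and DESeq2 each called 3 members, Ltbp2, Mfap4 and Mfap5, beside 2.45% and 2.81% of all genes in either direction. With TMM factors limma also called those 3, and the split of all called genes went from 391 higher and 89 lower to 237 higher and 164 lower. Without RH/+ replicate 1 the number of members called was 3. The median member differed by 0.41 and the median gene by 0.08 on the log2 scale.

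**Figure D2:**
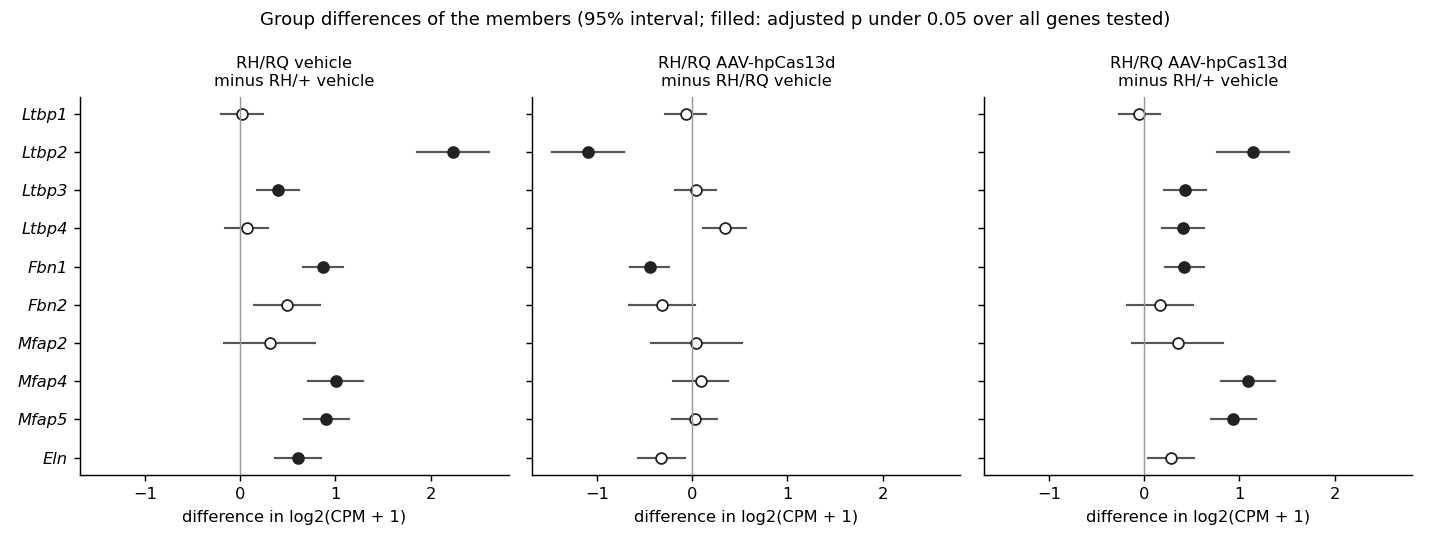
Difference of each member on the log2(CPM + 1) scale in the 3 comparisons, with 95% intervals of the limma fit; filled points passed an adjusted p under 0.05. Ltbp2 has the widest differences, 2.23 between RH/RQ vehicle and RH/+ hearts and -1.10 between treated and vehicle RH/RQ hearts.

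Ltbp2 (chromosome 12, 84783212 to 84876532, minus strand, GRCm38, GENCODE M21) had the widest range of the 10 members. It was at 2.26 and 2.71 CPM in RH/+ hearts, 12.4 and 18.9 CPM in RH/RQ vehicle hearts, and 6.23 and 7.09 CPM in treated hearts. The 3 groups did not overlap: RH/RQ vehicle was highest and treated hearts lay between the others. The mean CPM of RH/RQ vehicle was 6.31 times that of RH/+, a difference of 2.23 on the log2(CPM + 1) scale (SE 0.18; limma adjusted p = 2.4e-08). This call was kept in 17 of 17 alternative settings. In treated hearts Ltbp2 fell by 1.10 against RH/RQ vehicle (SE 0.18; limma adjusted p = 0.00102), a difference in mean CPM of -57.5%. Without RH/RQ vehicle replicate 2, the highest library, the fall was -0.81 and did not pass (limma adjusted p = 0.0652; range over 17 alternatives 2.93e-06 to 0.235). Treated hearts still stood 1.14 above RH/+ (SE 0.18; limma adjusted p = 0.000561). The span of an antisense gene, D030025P21Rik, overlaps exons of Ltbp2, and any reads in shared bases cannot be separated without a stated strand setting.

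The 250 bases before the start sites of Ltbp2 and Fbn1, the members that passed the test in every comparison, are shown beside those of Ltbp4, the most abundant member. They were read from the RefSeq promoter table on GRCm38.p6, which held such windows for 6 of the 10 members (10 windows in all). They run 5′ to 3′ on the gene's strand, at chr12:84876492-84876741 (minus) for Ltbp2, chr2:125506439-125506688 (minus) for Fbn1 and chr7:27337613-27337862 (minus) for Ltbp4, the latter being 1 of 3 windows of that gene. Capitals mark CAGAC or its complement GTCTG, the short element bound by SMAD proteins, the transcription factors of the TGF-beta pathway.
Ltbp2 promoter: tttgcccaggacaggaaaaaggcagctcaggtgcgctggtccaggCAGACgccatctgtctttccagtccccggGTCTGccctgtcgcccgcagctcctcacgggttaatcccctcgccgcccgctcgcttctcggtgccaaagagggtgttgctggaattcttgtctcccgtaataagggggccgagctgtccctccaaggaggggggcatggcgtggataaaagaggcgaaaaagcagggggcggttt
Fbn1 promoter: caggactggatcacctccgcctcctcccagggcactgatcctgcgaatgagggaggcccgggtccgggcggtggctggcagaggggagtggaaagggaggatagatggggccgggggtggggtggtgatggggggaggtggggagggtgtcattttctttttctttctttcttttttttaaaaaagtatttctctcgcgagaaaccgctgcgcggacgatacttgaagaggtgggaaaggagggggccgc
Ltbp4 promoter: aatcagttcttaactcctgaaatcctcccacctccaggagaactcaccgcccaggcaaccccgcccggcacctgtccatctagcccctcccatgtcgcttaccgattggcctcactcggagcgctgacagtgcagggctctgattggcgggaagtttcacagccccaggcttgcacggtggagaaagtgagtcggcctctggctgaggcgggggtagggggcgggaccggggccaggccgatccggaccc

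The Ltbp2 window held 2 such matches, the Fbn1 window 0 and the Ltbp4 window 0. Of the windows not shown, those of Ltbp1 held 1 and 2, that of Ltbp3 held 1, and those of Mfap2 held 1 and 0. The remaining windows of Ltbp4 held 0. On both strands, 42.2% of all 32851 windows of this length held at least 1. The AP-1 letters TGACTCA or TGAGTCA occurred in 4.46% of windows and the TEAD letters GGAATG in 12.6%, and neither was in the 3 windows shown. The GC box GGGCGG, present in 32.7% of all windows, occurred 2 times before Ltbp2, 1 time before Fbn1 and 3 times before Ltbp4. A match is a description of the letters, and a missing match says only that these letters are not in the window. The Fbn1 start site in this table lies 1555 bases inside the GENCODE gene.

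Among the latent TGF-beta carriers, Ltbp1 (chromosome 17, 75005568 to 75392512, plus strand) was nearly level. It was at 45.2 and 51.8 CPM in RH/+ hearts, 51.6 and 46.6 CPM in RH/RQ vehicle and 45.7 and 47.7 CPM in treated hearts. All 3 groups overlapped. On the log2(CPM + 1) scale its 95% intervals were -0.20 to 0.24 for RH/RQ vehicle against RH/+, -0.29 to 0.15 for treated against vehicle RH/RQ and -0.27 to 0.17 for treated against RH/+.

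Ltbp3 (chromosome 19, 5740904 to 5758532, plus strand) was at 35.9 and 39.7 CPM in RH/+ hearts, 50.3 and 49.9 CPM in RH/RQ vehicle and 55.6 and 47.4 CPM in treated hearts. Every RH/RQ library, treated or not, lay above both RH/+ libraries. The difference was 0.40 for RH/RQ vehicle against RH/+ (SE 0.11; limma adjusted p = 0.0287) and 0.43 for treated against RH/+ (SE 0.11; limma adjusted p = 0.0239). Both calls were lost without single libraries. For RH/RQ vehicle against RH/+ the limma adjusted p rose to 0.350 and 0.0576 without RH/+ replicates 1 and 2, and to 0.139 and 0.120 without RH/RQ vehicle replicates 1 and 2 (range over 17 alternatives 0.00817 to 0.350). For treated against RH/+ it was 0.101 by edgeR, 0.342 without RH/+ replicate 1 and 0.201 without treated replicate 1 (range over 17 alternatives 0.00572 to 0.342).

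Ltbp4 (chromosome 7, 27305136 to 27337692, minus strand) was at 325 and 392 CPM in RH/+ hearts, 367 and 381 CPM in RH/RQ vehicle and 519 and 433 CPM in treated hearts. The vehicle groups overlapped and both treated libraries lay above all 4 others. The difference between RH/RQ vehicle and RH/+ was 0.07, with a 95% interval of -0.16 to 0.29. Treated hearts stood 0.41 above RH/+ (SE 0.11; limma adjusted p = 0.0385), a call not kept by edgeR (adjusted p = 0.228), without RH/+ replicate 1 (limma adjusted p = 0.571) or without treated replicate 1 (0.250; range over 17 alternatives 0.00405 to 0.571). Against RH/RQ vehicle the difference was 0.34 (95% interval 0.12 to 0.56), which did not pass over all genes (limma adjusted p = 0.122). Without treated replicate 2 it was 0.47 and passed (limma adjusted p = 0.0130; range over 17 alternatives 0.0130 to 0.544). Ltbp4 supplied most of the members' summed reads: all 10 together came to 502 and 587 CPM in RH/+ hearts, 663 and 668 CPM in RH/RQ vehicle and 780 and 684 CPM in treated hearts.

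**Figure D3:**
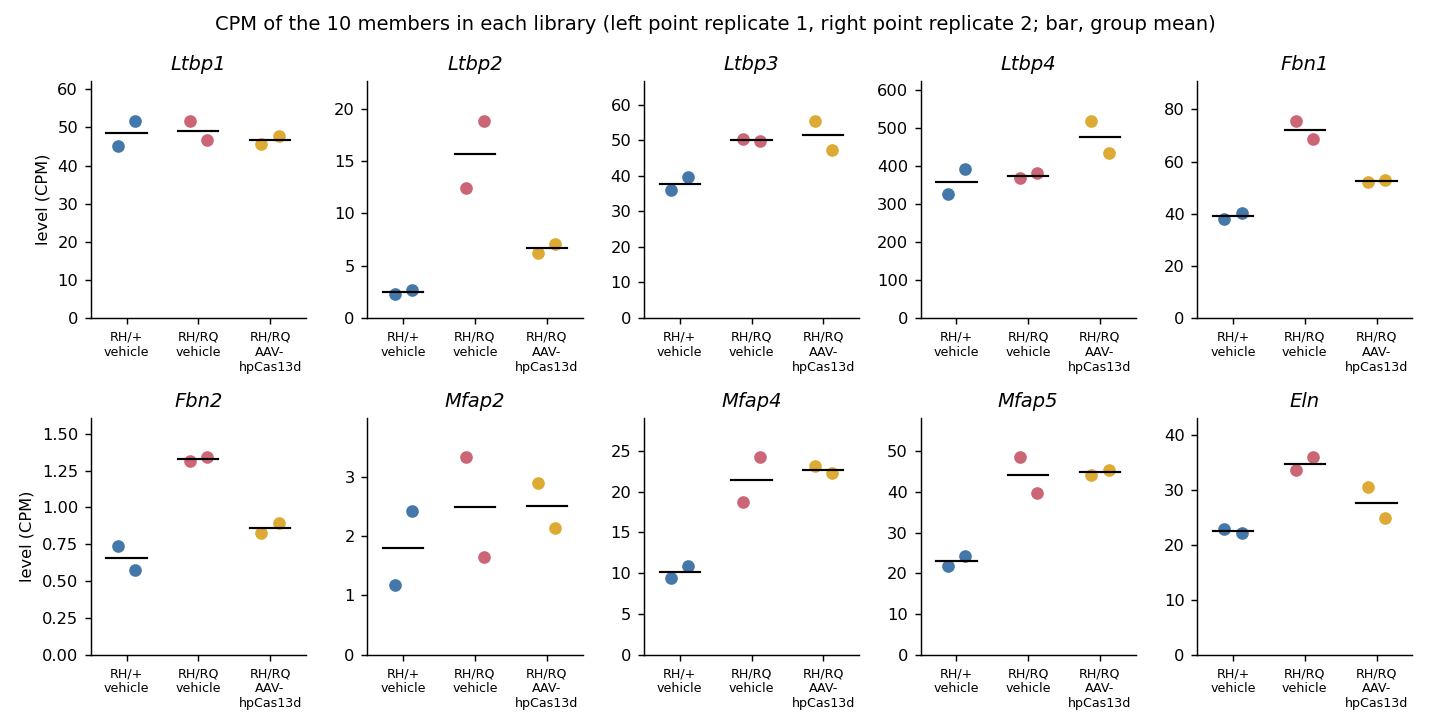
CPM of each of the 10 members in the 6 libraries, each gene on its own linear axis starting at 0. Ltbp2 and Fbn1 are highest in RH/RQ vehicle with treated hearts between the groups, Mfap4 and Mfap5 stay high in treated hearts, and Ltbp1 is level near 45 to 52 CPM.

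Fbn1 (chromosome 2, 125300594 to 125507993, minus strand), the main fibrillin of adult tissue and the gene altered in Marfan syndrome, was at 37.9 and 40.2 CPM in RH/+ hearts, 75.7 and 68.7 CPM in RH/RQ vehicle and 52.2 and 53.0 CPM in treated hearts. As for Ltbp2, the groups did not overlap and treated hearts lay between the others. The mean CPM in RH/RQ vehicle was 1.85 times that in RH/+, a difference of 0.87 (SE 0.10; limma adjusted p = 3.87e-06) kept in 17 of 17 alternatives. In treated hearts Fbn1 fell by 0.45 against RH/RQ vehicle (SE 0.10; limma adjusted p = 0.0150), a difference in mean CPM of -27.1%. This call was lost without RH/RQ vehicle replicate 1 (limma adjusted p = 0.167) and without treated replicate 1 (0.0517; range over 17 alternatives 0.000101 to 0.194). Treated hearts stood 0.42 above RH/+ (SE 0.10; limma adjusted p = 0.0186), a call not kept by edgeR (adjusted p = 0.101) or without RH/+ replicate 1 (0.264) or 2 (0.0628; range over 17 alternatives 0.00775 to 0.264). The span of Gm9913, on the opposite strand, overlaps exons of Fbn1.

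Fbn2, at the lower edge of what these libraries measure, had 23 to 67 reads per library. It was at 0.735 and 0.576 CPM in RH/+ hearts, 1.31 and 1.34 CPM in RH/RQ vehicle and 0.827 and 0.896 CPM in treated hearts. Its groups did not overlap and were ordered like those of Fbn1, with a mean CPM in RH/RQ vehicle 2.02 times that in RH/+. No comparison passed: the difference was 0.49 (95% interval 0.15 to 0.84; limma adjusted p = 0.101) for RH/RQ vehicle against RH/+ and -0.32 (95% interval -0.67 to 0.02; limma adjusted p = 0.447) for treated against vehicle RH/RQ. The log2(CPM + 1) scale understates the change of a gene this low.

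Mfap4 and Mfap5 followed another order from the fibrillins. Mfap4 (chromosome 11, 61485431 to 61488900, plus strand) was at 9.40 and 10.9 CPM in RH/+ hearts, 18.7 and 24.2 CPM in RH/RQ vehicle and 23.1 and 22.3 CPM in treated hearts. Mfap5 (chromosome 6, 122505845 to 122529290, plus strand) was at 21.8 and 24.4 CPM in RH/+ hearts, 48.6 and 39.8 CPM in RH/RQ vehicle and 44.2 and 45.6 CPM in treated hearts. For both genes all RH/RQ libraries lay above both RH/+ libraries, and the treated libraries lay inside the range of the vehicle-given RH/RQ hearts. Mfap4 was 1.00 higher in RH/RQ vehicle than in RH/+ (SE 0.14; limma adjusted p = 4.93e-05) and Mfap5 0.90 higher (SE 0.11; limma adjusted p = 1.39e-05). Treated hearts stood 1.09 above RH/+ for Mfap4 (SE 0.14; limma adjusted p = 3.34e-05) and 0.93 for Mfap5 (SE 0.11; limma adjusted p = 2.34e-05). From vehicle to treatment within RH/RQ the difference was 0.09 for Mfap4 (95% interval -0.20 to 0.37; limma adjusted p = 0.856) and 0.03 for Mfap5 (95% interval -0.21 to 0.26; limma adjusted p = 0.954). These intervals leave out a fall as large as the -0.45 of Fbn1, but the difference between the genes was not part of that fit. The span of Mapk7, on the opposite strand, overlaps exons of Mfap4.

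Mfap2 (chromosome 4, 141010418 to 141015984, plus strand) was at 1.18 and 2.43 CPM in RH/+ hearts, 3.33 and 1.65 CPM in RH/RQ vehicle and 2.90 and 2.14 CPM in treated hearts. Replicates of a group differed by as much as the groups, and no comparison passed. Its difference was 0.31 (95% interval -0.17 to 0.79) for RH/RQ vehicle against RH/+, 0.04 (-0.43 to 0.52) for treated against vehicle RH/RQ and 0.35 (-0.12 to 0.83) for treated against RH/+, with limma adjusted p-values of 0.547, 0.963 and 0.500.

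Eln (chromosome 5, 134702593 to 134747323, minus strand), the gene of tropoelastin, was at 22.9 and 22.1 CPM in RH/+ hearts, 33.6 and 36.0 CPM in RH/RQ vehicle and 30.6 and 24.8 CPM in treated hearts. The groups did not overlap, again with treated hearts between the others. Eln was 0.61 higher in RH/RQ vehicle than in RH/+ (SE 0.12; limma adjusted p = 0.00246), with a mean CPM 1.55 times as high. The other comparisons did not pass. Treated against vehicle RH/RQ gave -0.33 (95% interval -0.57 to -0.08, limma adjusted p = 0.211). Treated against RH/+ gave 0.28 (95% interval 0.04 to 0.53, limma adjusted p = 0.247). The span of an antisense gene, Gm30003, overlaps exons of Eln.

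Ratios within a library compare members without any scaling between libraries. These ratios were chosen after the values were seen. The CPM ratio of Mfap5 to Fbn1 was 0.574 and 0.605 in RH/+, 0.642 and 0.580 in RH/RQ vehicle and 0.846 and 0.859 in treated hearts. Mfap4 to Fbn1 gave 0.248 and 0.272, then 0.247 and 0.353, then 0.443 and 0.420 in the same order. Both treated libraries were above all 4 vehicle libraries in these 2 ratios, while the vehicle groups overlapped. The ratio of Ltbp2 to Fbn1 was 0.0596 and 0.0673 in RH/+, 0.164 and 0.275 in RH/RQ vehicle and 0.119 and 0.134 in treated hearts, with no overlap between groups. Eln to Fbn1 gave 0.605 and 0.550 in RH/+, 0.444 and 0.524 in RH/RQ vehicle and 0.586 and 0.468 in treated hearts; treated hearts overlapped both other groups. Over 15 tests of 5 ratios in 3 comparisons, the smallest two-sided exact permutation p was 0.333, the smallest that 2 libraries against 2 can give.

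**Figure D4:**
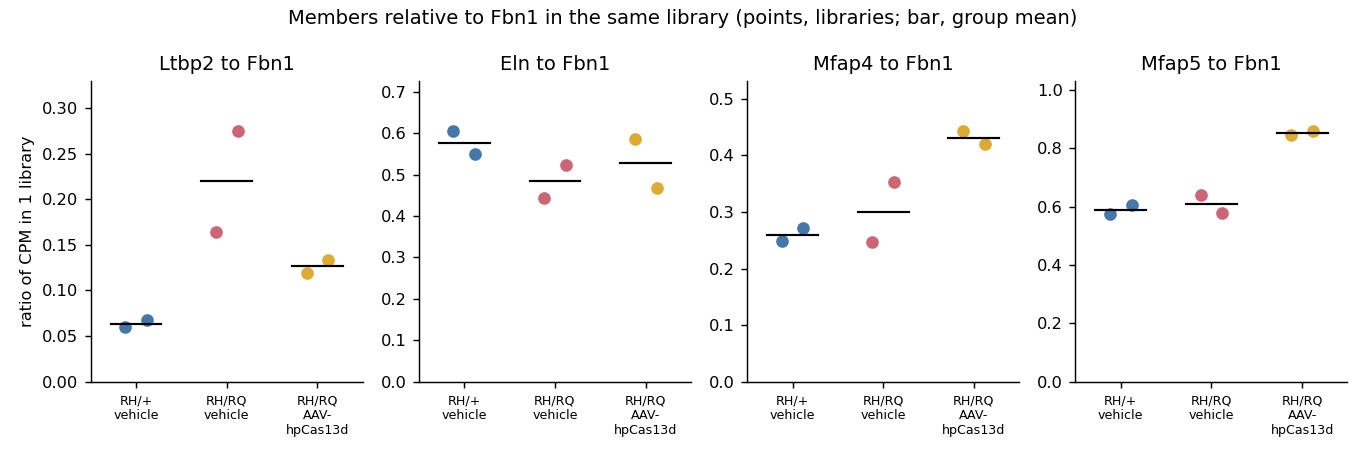
CPM of Mfap5, Mfap4, Ltbp2 and Eln divided by the CPM of Fbn1 in the same library, for the 6 libraries. The Mfap5 ratio is 0.846 and 0.859 in treated hearts and at most 0.642 elsewhere, while the Ltbp2 ratio is highest in RH/RQ vehicle hearts.

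The genes whose profile over the 6 libraries came nearest to those of Ltbp2 and Fbn1 were sought among 12237 named genes that averaged 1 CPM or more. The measure was the root mean square difference of log2(CPM + 1) values, each gene centred on its own mean. Among the nearest to Ltbp2 were Serpina3n (0.128), a serine protease inhibitor, Cilp (0.260), a matrix protein, Tnc (0.292), the matrix protein tenascin C, and Pdk4 (0.300), a mitochondrial kinase that restrains pyruvate oxidation. Serpina3n, for example, was at 7.27 and 8.94 CPM in RH/+ hearts, 35.1 and 40.0 CPM in RH/RQ vehicle and 16.6 and 18.9 CPM in treated hearts. Nearest to Fbn1 were Papln (0.0294), Otulinl (0.0441), Col8a1 (0.0491), a short-chain collagen, Arntl (0.0540), a clock transcription factor, and Vcan (0.0563), the proteoglycan versican. Papln, a secreted ADAMTS-like protein, was at 10.6 and 10.7 CPM in RH/+ hearts, 21.9 and 20.1 CPM in RH/RQ vehicle and 14.8 and 15.0 CPM in treated hearts. The nearest member to Fbn1 was Eln (0.160) and the nearest to Ltbp2 was Mfap4 (0.576). All profiles share the same 6 libraries, so nearness is a description.

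Related genes were taken from 5 lists with 79 genes beside the members, and their counts were read against the shares of all genes given above. In RH/RQ vehicle against RH/+ hearts, 20 of these were higher and 4 lower by limma. Of 20 tested genes of elastic fibre assembly and cross-linking, 5 were higher and 1 lower, with a median of 0.28 on the log2 scale. Lox and Loxl1, enzymes that cross-link elastin and collagen, rose by 1.35 (SE 0.20; limma adjusted p = 0.000104) and 0.84 (SE 0.12; limma adjusted p = 9.82e-05). Vcan rose by 0.85 (SE 0.13) and Mgp, a calcification inhibitor, by 0.60 (SE 0.11), and Efemp1, a fibulin family protein, by 0.68 (SE 0.16). The lower gene of this list, Emilin2, differed by -0.66 (SE 0.12, limma adjusted p = 0.00128). Of 11 tested ADAMTS and ADAMTS-like genes of microfibrils, Papln was 0.92 higher (SE 0.13) and Adamtsl3 0.81 lower, from 13.6 ± 1.56 to 7.32 ± 0.952 CPM (SD, n = 2 each). Without either treated library 2 were higher and 2 lower.

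TGF-beta itself and the machinery that frees it were also measured in RH/RQ vehicle against RH/+ hearts. Of 8 ligands and receptors, 2 were higher: Tgfb3 by 0.58 (SE 0.13; limma adjusted p = 0.00905) and Tgfb2 by 0.51 (SE 0.13; limma adjusted p = 0.0173). Without RH/+ replicate 1 neither passed, so that 0 of the 8 were called, and without any other of the 4 compared libraries 1 was. Tgfb1, the best-studied ligand, was at 22.9 and 23.2 CPM in RH/+ hearts, 28.1 and 24.2 CPM in RH/RQ vehicle and 30.9 and 22.0 CPM in treated hearts, and passed in no comparison. Of 20 genes that activate or store latent TGF-beta, 5 were higher and 1 lower. Thbs1, whose product thrombospondin 1 activates latent TGF-beta, rose by 1.60 (SE 0.13; limma adjusted p = 2.3e-08), the membrane protease Mmp14 by 1.43 (SE 0.14) and the gelatinase Mmp2 by 1.01 (SE 0.10). The small proteoglycan Dcn rose by 0.59 (SE 0.11). The lower gene, Htra1, a secreted protease, was not called without RH/+ replicate 1, RH/+ replicate 2 or RH/RQ vehicle replicate 2, which each left 0 lower. Of 20 SMADs and known TGF-beta target genes, a list that includes Ltbp2, 8 were higher and 1 lower. Col1a1 and Col3a1, the fibrillar collagens, rose by 1.68 (SE 0.12) and 1.30 (SE 0.10), and Timp1, an inhibitor of metalloproteinases, by 1.89 (SE 0.20). The gene that fell was Acta2, smooth muscle actin, from 216 ± 36.2 to 84.7 ± 18.8 CPM (SD, n = 2 each).

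In treated against vehicle RH/RQ hearts 4 of the 79 genes were higher and 9 lower. Lox fell by 1.33 (SE 0.20; limma adjusted p = 0.000273), from 6.41 and 5.80 CPM to 1.52 and 2.19 CPM, against 2.34 and 1.33 CPM in RH/+. Efemp1 fell by 0.95 (SE 0.16) and Loxl1 by 0.53 (SE 0.12; limma adjusted p = 0.0212), so 3 of 20 elastic fibre genes were lower by limma and 5 by edgeR and by DESeq2. Among the ADAMTS-like genes 3 of 11 were higher: Adamtsl3 by 0.82 (SE 0.15; limma adjusted p = 0.00241), Adamtsl2 by 0.67 (SE 0.14) and Adamtsl4 by 0.51 (SE 0.11). No ligand or receptor of 8 passed (0 by limma also at an unadjusted p under 0.05, 0 by edgeR and 0 by DESeq2). Mmp14 fell by 0.74 (SE 0.14) and Thbs1 by 0.55 (SE 0.13; limma adjusted p = 0.0241), 2 of the 20 activation and storage genes. Without RH/RQ vehicle replicate 2 that count was 0, and it was 1 without treated replicate 2 or without RH/RQ vehicle replicate 1. Of the 20 SMADs and targets 5 were lower, Ltbp2 among them, and 1 was higher, or 2 without RH/RQ vehicle replicate 1. Col3a1 fell by 1.15 (SE 0.10), Col1a1 by 1.17 (SE 0.12) and Timp1 by 1.16 (SE 0.20), while Ccn2, connective tissue growth factor, rose by 0.81 (SE 0.11; limma adjusted p = 9.23e-05).

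Treated against RH/+ hearts left 17 of the 79 genes higher and 2 lower by limma, 11 of them higher by edgeR. Without RH/+ replicate 1, 9 were higher and 1 lower, and without treated replicate 1, 10 were higher and 1 lower. Mgp stood 0.83 higher (SE 0.11), Thbs1 1.05 higher (SE 0.13), Mmp2 0.82 higher (SE 0.10) and Ccn2 0.94 higher (SE 0.11). Col1a1 stood 0.51 higher (SE 0.12; limma adjusted p = 0.0151), and Acta2 was lower by 1.51 on the same scale, a log2 difference of -1.51 (SE 0.12).

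**Figure D5:**
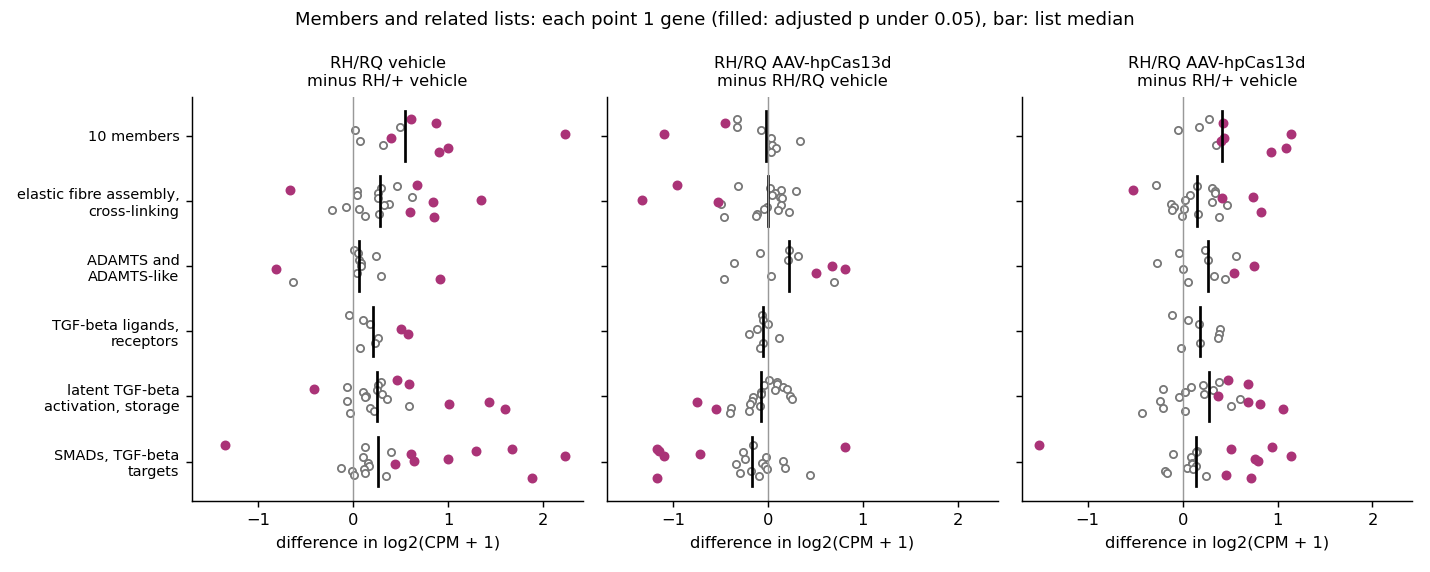
Differences on the log2(CPM + 1) scale of the members and of the genes on 5 related lists, in the 3 comparisons; each point is a gene, filled where its limma adjusted p was under 0.05, and bars are list medians. Between RH/RQ vehicle and RH/+ hearts 20 of the 79 listed genes outside the members are called higher and 4 lower.

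Markers of some of the cells a heart can hold differed between groups, while endothelial markers had 0 limma calls in all 3 comparisons. By limma, 3.48% of all genes were higher and 1.51% lower in RH/RQ vehicle against RH/+. These shares were 1.22% and 0.827% in treated against vehicle RH/RQ, and 2.33% and 0.530% in treated against RH/+. Counts of markers were read against them. The list of 15 fibroblast markers includes Mfap5. Its summed CPM was 2591 to 3036 in RH/+, 3285 to 3537 in RH/RQ vehicle and 3758 to 4361 in treated hearts. Gsn supplied more of each sum than any other marker, with group means of 1453, 1577 and 2100 CPM in the same order. The sums therefore cannot stand for the whole list, and sums without Gsn were not taken. Of these 15, limma called 5 higher and 1 lower in RH/RQ vehicle against RH/+, 1 higher and 1 lower in treated against vehicle RH/RQ, and 8 higher and 0 lower in treated against RH/+ (1 lower at an unadjusted p under 0.05, 0 by edgeR and by DESeq2). Without RH/RQ vehicle replicate 1 the first of these counts was 3 higher, and without RH/+ replicate 1 or treated replicate 1 the last was 5. In treated against vehicle RH/RQ, leaving out treated replicate 1 or RH/RQ vehicle replicate 2 gave 0 higher, leaving out treated replicate 2 gave 3, and leaving out either RH/RQ vehicle library gave 0 lower. Macrophage markers summed to 412 to 416 CPM in RH/+ hearts, 500.0 to 546 CPM in RH/RQ vehicle and 441 to 522 CPM in treated hearts, with 5 of 12 higher in RH/RQ vehicle against RH/+ and 2 or 3 without any 1 of the 4 compared libraries. Valve and cartilage-type matrix markers, of which 6 of 11 could be tested, summed to 12.0 to 17.0 CPM, 30.0 to 39.5 CPM and 22.0 to 23.0 CPM in the same order, with Hapln1 at 0 reads in both RH/RQ groups. In RH/RQ vehicle against RH/+ 4 of these 6 were higher, and in treated against vehicle RH/RQ 2 were lower. Their part in the members' differences was not tested.

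Markers of other cell types were summed in the same way, and their counts were read against the same shares of all genes. Atrial markers summed to 160 to 197 CPM in RH/+ hearts, 161 to 177 CPM in RH/RQ vehicle and 510 to 825 CPM in treated hearts. Of the 6 that could be tested, limma called 0 in RH/RQ vehicle against RH/+ (1 higher and 1 lower at an unadjusted p under 0.05, 0 by edgeR and by DESeq2), 2 higher in treated against vehicle RH/RQ (Nppa and Kcna5) and 3 higher in treated against RH/+ (with Dkk3). Without RH/RQ vehicle replicate 1 there were 2 higher in the first of these comparisons, without RH/+ replicate 2 there was 1, and without RH/RQ vehicle replicate 2 or RH/+ replicate 1 there were 3 in the second. Nppa, which ventricles also make, supplied most of the sum, at 428 and 753 CPM in the treated libraries. Kcna5, a potassium channel, was read at 21.5 CPM in each RH/RQ vehicle library and at 39.8 and 33.1 CPM after treatment, a difference of 0.73 (SE 0.12; limma adjusted p = 0.000773). Dkk3 was read at 10.8 and 16.1 CPM in RH/RQ vehicle libraries and 18.7 and 21.1 CPM after treatment, and passed only against RH/+ (1.01, SE 0.17; limma adjusted p = 0.000745). Myl4, Myl7 and Stard10 passed in no comparison, and Sln, a defining atrial gene, had 0 reads in the 4 vehicle libraries and 4 and 1 reads in the treated ones. Endothelial markers (12 tested) had 0 calls in all 3 comparisons by limma and edgeR; at an unadjusted p under 0.05, limma had 3 higher in RH/RQ vehicle against RH/+ and 1 lower in treated against vehicle RH/RQ, and DESeq2 called 1 lower in the latter. Of 14 smooth muscle and pericyte markers, 2 were lower in RH/RQ vehicle against RH/+ (Acta2 and Abcc9), 1 was higher in treated against vehicle RH/RQ (Abcc9, by 0.39, SE 0.10; limma adjusted p = 0.0428; 0 by edgeR and by DESeq2) and 1 was lower in treated against RH/+ (Acta2). With either RH/RQ vehicle library left out, 0 were higher in treated against vehicle RH/RQ, and with treated replicate 2 left out 2 were. Leaving out replicate 2 of RH/+ or of RH/RQ vehicle brought the 2 lower calls to 1. The summed CPM of these 14 was 3047 to 3190 in RH/+, 2752 to 2850 in RH/RQ vehicle and 3181 to 3271 in treated hearts. Des supplied more of each sum than any other marker, with group means of 1498, 1404 and 1736 CPM in the same order. These sums therefore cannot stand for the whole list, and sums without Des were not taken. Cardiomyocyte markers (12 tested) summed to 77065 to 81921 CPM in RH/+, 69780 to 73816 CPM in RH/RQ vehicle and 75575 to 76762 CPM in treated hearts. In RH/RQ vehicle against RH/+ limma called 0 of these 12, with 2 lower at an unadjusted p under 0.05. There edgeR called 1 lower and DESeq2 5. The part of these cell types in the members' differences was not tested.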

How the data were processed

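RNA of 6 mouse heart samples was measured, 2 in each of 3 groups read from the labels. mRNA was captured from 1 µg of total RNA on poly-T beads, per the labels' protocols. HISAT2, HTSeq, DESeq2 and mm10 are named by the submitters' processing notes; their versions, the strand setting and the annotation are not given in the sources used here. The authors deposited 3 full tables of CPM, each for 4 libraries, which agreed on shared libraries. Per the file headers, the authors' tables also give each gene's mean signal, a log2 fold change with 2 scores (its standard error and a test statistic), and p-values.

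All CPM values were whole multiples of 1 read (100% within a tolerance of 0.001), so reads were recovered. Where a gene had 0 reads its level could be up to 3 reads, or 0.0588 to 0.0827 CPM, and such limits cover counting error only. Replicates differed by more than sampling noise. limma 3.58.1 (R 4.3.3), with a trend, was fitted to log2(CPM + 1) of all 6 libraries as 3 group means, because the deposited unit is CPM. filterByExpr with a minimum count of 10 left 16804 genes, and p-values were adjusted by Benjamini-Hochberg over all of them, with calls at 0.05. edgeR 4.0.16 and DESeq2 1.42.0 on recovered reads, other pseudocounts (0.1, 5), filters and scalings, fits to the 4 libraries compared, a replicate block and leaving out each library were alternatives. The limma fit was tested on simulated reads. Positions and lengths are from GENCODE M21 on GRCm38.

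The members and gene lists were chosen with earlier results of these data known. The naming rule was all 10 members, up to 4 genes of each other list with the smallest p in a comparison, and the 5 nearest profiles to Ltbp2 and Fbn1. Genes named beside these, such as Tgfb1 and Sln, were chosen after their values were seen. Not every gene under this rule is reported here.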

Additional observations from a re-analysis of the deposited data

How the results depend on the processing

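Each comparison was recomputed under 17 alternatives. Of the counts of called members and listed genes, 178 recomputed values stayed within 1.5 times the reported count and 26 did not. The 178 include reported counts of 0 that stayed 0, and alternatives that left out a library outside the comparison. With no filter on low genes, which raises the number of tests to 29385, RH/RQ vehicle against RH/+ kept 2 members higher and 5 listed genes higher with 0 lower; treated against vehicle RH/RQ kept 0 members lower, and 0 listed genes higher and 1 lower; treated against RH/+ kept 0 members higher, and 0 listed genes higher and 0 lower. For treated against RH/+, edgeR, DESeq2, TMM and RLE factors each gave 3 members higher; edgeR and TMM factors gave 11 listed genes higher and RLE factors 10. Leaving out 1 library gave 0 to 1 members higher and 1 to 2 lower for treated against vehicle RH/RQ, 3 to 6 members higher for treated against RH/+, and there 9 to 21 listed genes higher and 1 to 2 lower. Sample names that share their last digits start with 6 or 7. With this digit as a replicate block, 6, 1 and 6 members were higher in the 3 comparisons in the order given, and 2 were lower in treated against vehicle RH/RQ; the added member was Ltbp4 (limma adjusted p = 0.0400). Differences between the libraries so named correlated at 0.179, -0.0305 and 0.0884 between pairs of groups over 13489 genes. With the block, limma called 781 genes higher and 392 lower in RH/RQ vehicle against RH/+, beside 585 and 253 without it. In treated against vehicle RH/RQ it called 362 and 205, beside 205 and 139. In treated against RH/+ it called 577 and 138, beside 391 and 89. Whether the shared digit marks a batch or a pairing was not tested.

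Signs turned only for members that did not pass. In RH/RQ vehicle against RH/+, Ltbp1 was -0.031 by edgeR, -0.034 by DESeq2, -0.028 with TMM factors and -0.031 with RLE factors; leaving out a library gave -0.078 to 0.116 for Ltbp1, -0.067 to 0.203 for Ltbp4 and -0.046 to 0.663 for Mfap2. In treated against vehicle RH/RQ, Ltbp3 was -0.021 by edgeR, -0.020 by DESeq2, -0.023 with TMM factors, -0.022 with RLE factors and -0.027 with CPM over nuclear genes. Mfap5 was -0.034, -0.033, -0.029, -0.028 and -0.033 under the same settings in that order, and Mfap2 was -0.053 by edgeR and -0.044 by DESeq2. Leaving out a library there gave -0.141 to 0.003 for Ltbp1, -0.079 to 0.148 for Ltbp3, -0.310 to 0.399 for Mfap2, -0.090 to 0.267 for Mfap4 and -0.112 to 0.169 for Mfap5. In treated against RH/+ it gave -0.148 to 0.047 for Ltbp1. The cause was not tested for any of these. With 2 libraries per group, and 1 where a library was left out and assumed to vary like the others, small differences of Ltbp1, Mfap2 and Fbn2 were not detectable.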

Other observations

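Some lists of other cell types were not described above. Their counts were read against the limma shares of all genes given with the other marker lists. Of 10 epicardial and mesothelial markers, limma called 0 in RH/RQ vehicle against RH/+ (0 at an unadjusted p under 0.05, and 0 by edgeR and by DESeq2). In each of the other comparisons 1 was lower: Muc16 (limma adjusted p = 0.0195) in treated against vehicle RH/RQ and Msln, at -1.16 (SE 0.28; limma adjusted p = 0.0232) in treated against RH/+. Their summed level was 39.3 to 41.6 CPM in RH/+, 35.5 to 45.3 CPM in RH/RQ vehicle and 27.9 to 30.5 CPM in treated hearts. Of 8 adipocyte markers 3 could be tested, and in RH/RQ vehicle against RH/+ limma called 2 lower, Plin1 at -0.69 (SE 0.19; limma adjusted p = 0.0343) and Cfd at -1.24 (SE 0.35; limma adjusted p = 0.0397). RH/+ replicate 2 held most of their reads. Cfd was at 0.236 and 4.11 CPM in the RH/+ libraries and 0.137 and 0 CPM in RH/RQ vehicle, and Plin1 at 0.263 and 1.10 CPM in RH/+ and 0.0196 and 0 CPM in RH/RQ vehicle. Without RH/+ replicate 2 the count was 0, as by DESeq2, without RH/+ replicate 1 it was 5, and it was 1 and 0 without RH/RQ vehicle replicates 1 and 2. Adipoq, Lep, Cidec and Retn had 0 reads in both RH/RQ vehicle libraries. Of 12 cardiomyocyte markers limma called only Nppa, higher in both comparisons of treated hearts. DESeq2 also called 2 lower in treated against RH/+.

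In the authors' deposited table for treated against RH/+, fitted to the 4 libraries of that comparison, Ltbp3, Ltbp4 and Fbn1 had adjusted p-values of 0.197, 0.205 and 0.180. In the authors' deposited table for treated against vehicle RH/RQ, Ltbp2 had a log2 fold change of -1.29 (adjusted p = 8.85e-06) and Fbn1 of -0.51 (adjusted p = 0.00104).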
